A study of Mus musculus with 4 samples.

Results

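The genes described here are 39 genes of the endoplasmic reticulum (ER) stress response and of the ATF4 program, taken by gene symbol from a list of ER chaperones, stress sensors, degradation factors, ATF4 pathway regulators and amino acid enzymes. All 39 were found, each as a single row, among the 54078 features of the deposited table. Kidney RNA was sequenced in 4 libraries, 2 named WT and 2 named KO. Each library is described as RNA pooled from 3 adult male mice of the strain C57BL/6 x 129S4/SvJae, whereas the study's methods give a C57BL/6 background. The WT mice were Cre-negative littermates that carry the floxed Apela alleles, and the KO mice (Apela Ksp KO) carry the same alleles with Cre driven by the Ksp-cadherin promoter, which is active in renal tubular epithelial cells. Both groups were injured in the same way, with both kidneys clamped for 30 min and the tissue taken at day 3 of reperfusion. No uninjured kidney was analysed here, so the values compare injured KO with injured WT kidneys and do not show a response to injury. Apela encodes elabela (ELA), a secreted ligand of the apelin receptor APJ.

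The ER is where secreted and membrane proteins enter the pathway and fold. When unfolded proteins build up there, the membrane sensors IRE1, PERK and ATF6 start the unfolded protein response: IRE1 splices the mRNA of XBP1, ATF6 is cut to release a transcription factor, and PERK phosphorylates the translation factor eIF2alpha. XBP1 and ATF6 raise chaperones and degradation factors. Phosphorylated eIF2alpha slows general translation and favours translation of ATF4, which raises genes for amino acid supply and the regulators CHOP (gene Ddit3) and TRIB3. Other kinases of eIF2alpha, which sense for example a lack of amino acids, reach ATF4 without the ER. Renal tubule cells secrete and transport large amounts of protein, and this response is well known in ischemic kidneys. RNA levels of whole genes do not show XBP1 splicing, ATF6 cleavage or eIF2alpha phosphorylation.

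The promoters of some of these genes share a motif. The ER stress response element (ERSE) is read by ATF6 and XBP1 together with the factor NF-Y, and its consensus is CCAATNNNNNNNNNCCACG, with N for any base. RefSeq windows of 300 bases, from 250 bases before to 50 bases after a gene's start, were available for 35 of the 39 genes on GRCm38.p6 (37 windows). On either strand, the full consensus was found in the windows of 9 of the 35 genes (25.7%), and in those of 37 of all 27025 genes with a window (0.137%). Both the list and the motif were chosen for the ER stress response, so this contrast only describes that choice and has no test. The 10 matches are printed below from the CCAAT end, with the fixed bases in capitals. The search required the fixed bases, so only the 9 bases between them could differ, and these differ from gene to gene. Pdia6 is the only disulfide isomerase among the genes with a match, Derl3 and Syvn1 are degradation genes, and the others are chaperones.

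Hspa5: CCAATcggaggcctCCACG
Hsp90b1, nearer site: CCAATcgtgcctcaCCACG
Hsp90b1, farther site: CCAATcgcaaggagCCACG
Calr: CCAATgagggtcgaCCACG
Canx: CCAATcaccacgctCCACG
Creld2: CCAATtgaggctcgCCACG
Dnajc3: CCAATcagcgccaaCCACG
Pdia6: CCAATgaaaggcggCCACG
Derl3: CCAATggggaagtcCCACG
Syvn1: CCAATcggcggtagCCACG

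The site of Hspa5 lies at chr2:34772025-34772043 on the plus strand and begins 65 bases before the gene's RefSeq start. In the deposited table this gene begins earlier, at chr2:34771970, so by those coordinates the site lies inside the gene. The site of Syvn1 begins nearest to a RefSeq start, at 44 bases, and the farther site of Hsp90b1 is the most distant, at 212 bases. Hspa5 encodes BiP, the main HSP70 chaperone of the ER, and the 250 bases before its RefSeq start, chr2:34771840-34772089 on the plus strand, are given with the full element in capitals:

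Hspa5 promoter: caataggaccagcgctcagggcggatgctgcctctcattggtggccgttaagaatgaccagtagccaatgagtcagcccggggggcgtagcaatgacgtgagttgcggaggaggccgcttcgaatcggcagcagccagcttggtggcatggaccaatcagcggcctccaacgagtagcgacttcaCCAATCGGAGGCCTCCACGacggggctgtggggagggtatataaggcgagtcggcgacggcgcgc

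The shorter element ERSE-II, which is ATTGG and CCACG with 1 base of any kind between them, was found for Herpud1 (ATTGGgCCACG, chr8:94386377-94386387) and Dnajb11 (ATTGGcCCACG, chr16:22857852-22857862), which is 2 of 35 genes (5.71%) against 0.0444% of all genes. The Dnajb11 site lies after the gene's RefSeq start, and inside the gene by the deposited coordinates, which begin at chr16:22857845. Herpud1 encodes a membrane component of the degradation machinery and Dnajb11 a co-chaperone of BiP. The form TGATGNAAT of the ATF4 motif was found for Nupr1 alone (TGATGcAAT, chr7:126625573-126625581), 2.86% of the genes against 1.08% of all. Nupr1 encodes a small stress-induced chromatin protein. The motif TGACGTGG, read by XBP1 and ATF6, was found in 0 of the 35 genes and in 0.714% of all genes. These matches describe letters in a fixed window. A gene without a match lacks only these letters in this window. Its window can still hold a variant. The windows of Asns, Chac1 and Herpud1 hold the ATF4 motif with C in place of its last T, a form outside the search. ATF4 sites of several target genes are also known to lie elsewhere.

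The libraries held 16045724 to 16927742 reads on genes, which gave even the lowest of the 39 genes, Derl3, between 18 and 48 reads. Deposited values are FPKM, fragments per kilobase of gene divided by a total for each library. That total was 0.968 to 0.988 times the reads on genes in WT1, KO1 and KO2 and 1.07 times in WT2, so the deposited values of WT2 are lower, relative to its reads on genes, than those of the other pools. On log2(FPKM + 0.5), however, the median deviation from the gene mean over all tested genes was -0.0033 in WT2. It was -0.0019 to 0.0049 in the other pools. Levels of different genes are compared on the FPKM scale because it is per length. Apela had an FPKM of 5.27 and 4.57 in WT1 and WT2 and of 0.536 and 0.245 in KO1 and KO2, so the labels fit the targeted gene. Markers of kidney segments were present (Lrp2 of the proximal tubule between 70.4 and 99.9 FPKM, Umod of the thick ascending limb between 788 and 1133), while the adipose genes Ucp1 and Adipoq were at 0 reads in 4 and 3 of the 4 libraries. Another adipose gene, Cidec, had 41, 9, 246 and 84 reads in WT1, WT2, KO1 and KO2, and Plin1 had 4, 1, 27 and 9, so that the 6 adipose genes summed to 0.375 to 8.27 FPKM. Adipose tissue is named in the design text, and kidney in the sample labels. WT2 stood apart from the other pools in markers of immune cells: the summed FPKM of 9 macrophage genes was 416 in WT2 against 164 to 207 elsewhere, and that of 10 plasma and B cell genes was 116 against 33.1 to 62.0. In RNA from whole tissue, a smaller number of cells of a type and less RNA per cell cannot be told apart.

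With limma on log2(FPKM + 0.5), 0 of the 39 genes differed between KO and WT at a Benjamini-Hochberg adjusted p-value under 0.05, as did 0 of the 15414 genes tested (0%). Voom weights on the recovered reads also gave 0 of 39. The deleted gene Apela did not pass either, with a log2 fold change of -2.62 (SE 0.22, limma adjusted p = 0.466). A gene that fails this test is therefore not shown to be unchanged. The paper, which does not name its model, reports differentially expressed genes at an adjusted p under 0.05. At an unadjusted p under 0.05 there were 0 of the 39 genes in either direction, against 3.29% of all tested genes higher and 3.03% lower in KO. In 11 of the 39 genes (28.2%) both KO pools lay below both WT pools, against 18.1% of all tested genes, and in 5 (12.8%) both lay above, against 19.7%. The difference of the group means was larger than both differences between replicates for 9 of the 39 genes (23.1%), against 24.4% of all tested genes. The median log2 fold change was -0.082 over the 39 genes and 0.0071 over all genes tested, and over the 39 genes it was -0.0011 without KO2 and -0.0054 without WT2, in a range down to -0.11 over the omitted pools. With n = 2 pools a group, an exact permutation test cannot give a two-sided p under 0.333, and the p-values measure the spread between pools.

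**Figure D1:**
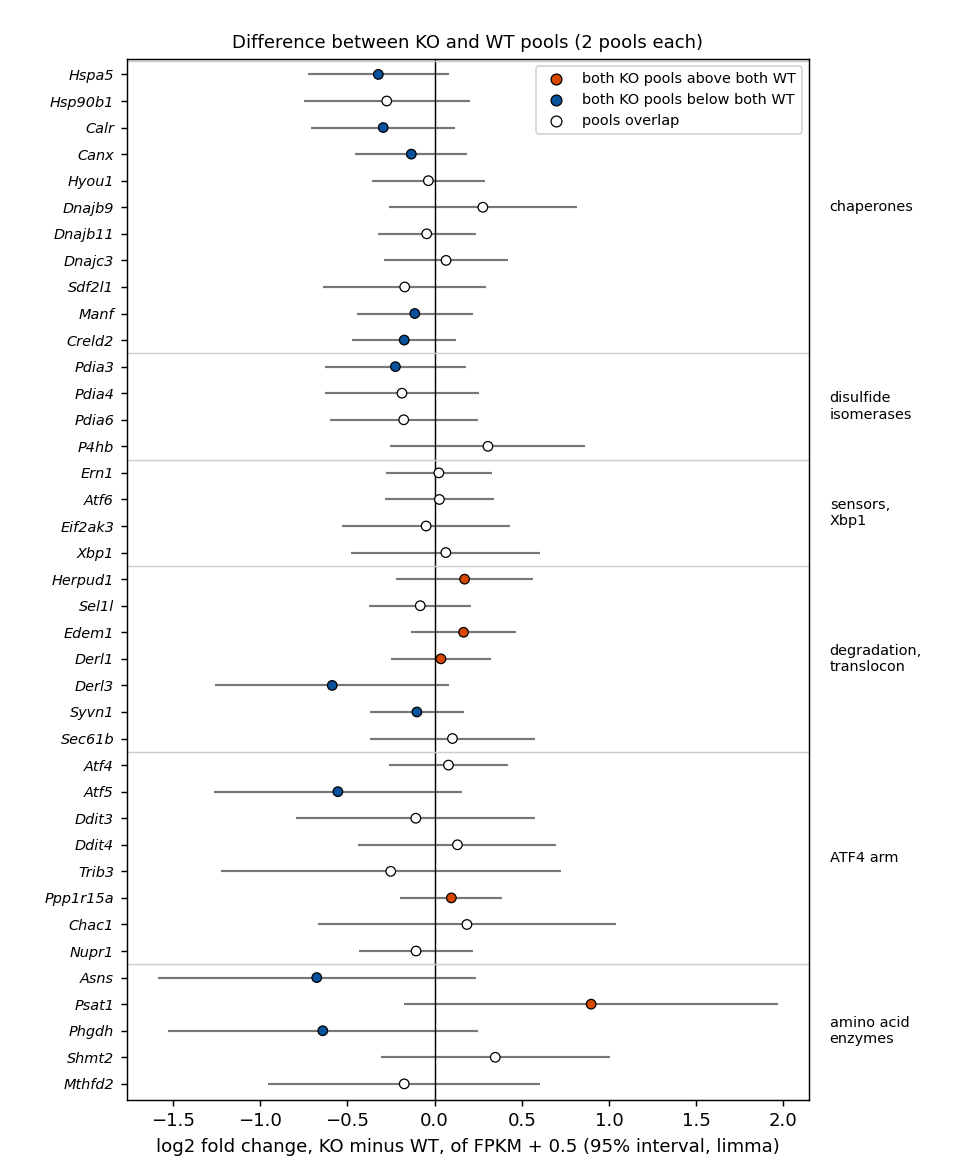
Log2 fold change of FPKM + 0.5 (KO minus WT, x axis) of each of the 39 genes, grouped by role, with the 95% interval of the limma fit as a line (2 pools a group). Every interval crosses 0; orange points mark the 5 genes whose KO pools both exceeded the WT pools, blue points the 11 whose KO pools were both lower, and white points overlap.

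The genes covered a wide range of levels, from a mean FPKM of 1.10 for Derl3 to 285 for P4hb, with a median of 27.4 against 5.24 over all genes tested. P4hb, which encodes protein disulfide isomerase and is also a subunit of collagen prolyl hydroxylase, was followed by Calr with a mean of 228. The sensors were low by comparison: Ern1 (IRE1), Atf6 and Eif2ak3 (PERK) ranged from 5.35 to 11.2 FPKM over all pools. The most stable gene was Derl1, a channel component for degradation substrates, whose highest pool was 1.05 times its lowest. The least stable was Psat1, at 3.41 times. The amino acid enzymes spread over 1.76 to 3.41 times, while the sensors and Xbp1 spread over 1.09 to 1.40 times.

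**Figure D2:**
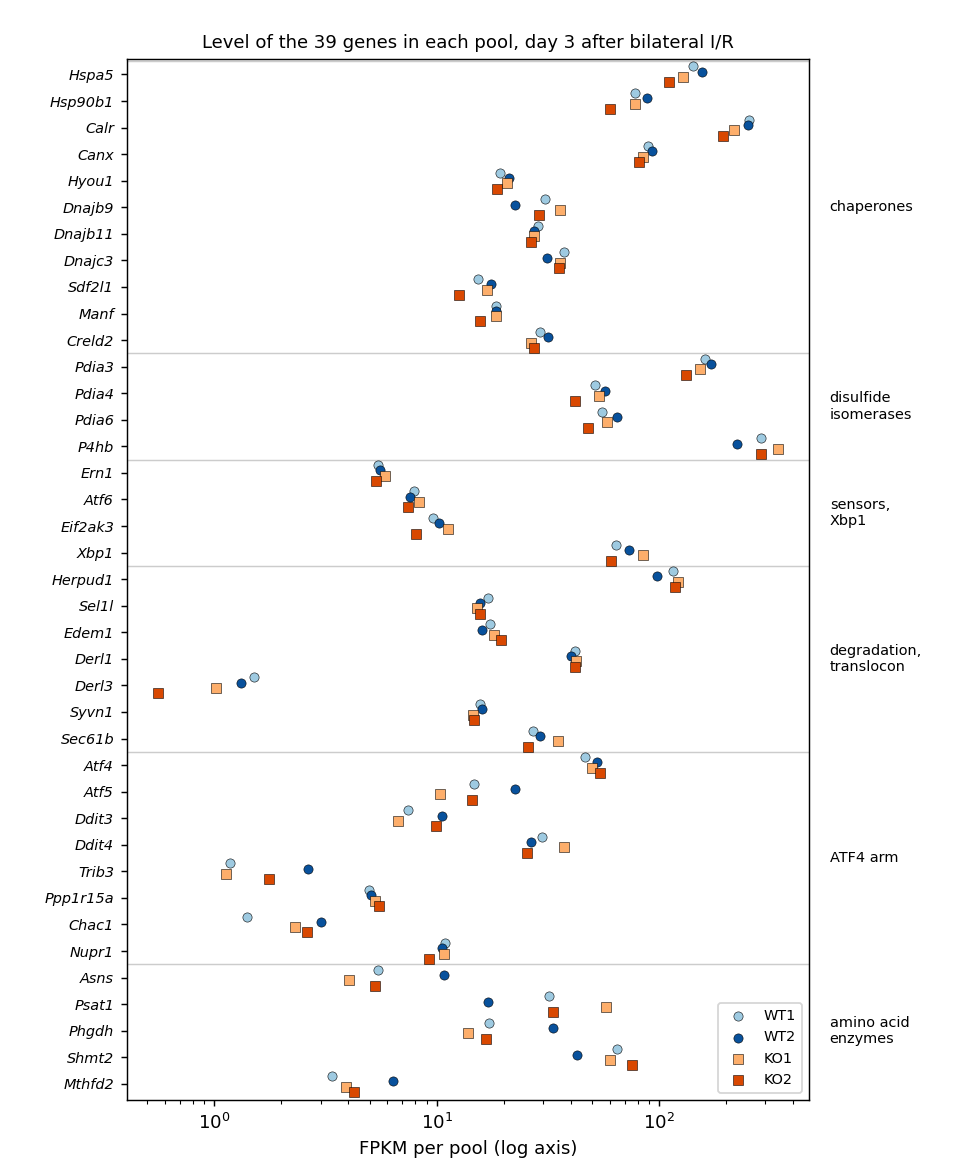
FPKM of each of the 39 genes in the 4 pools, on a log axis, with circles for WT and squares for KO, slightly offset in height for each pool. Chaperones and disulfide isomerases lie mostly above 15 FPKM with the pools close together, whereas Derl3, Trib3, Chac1 and the amino acid enzymes are spread out.

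Among the chaperones, 9 of 11 had a lower mean in KO and 5 had both KO pools below both WT pools, against 18.1% of all tested genes, and none passed the test. Between the same groups, 8 of 10 proximal tubule markers were lower in KO. Without overlap, 4 (40%) were lower and 2 (20%) higher, against 18.1% and 19.7% of all tested genes. All 6 endothelial markers were higher in KO, 3 of them without overlap (50%, against 19.7% of all tested genes). None of these markers passed the test. Hspa5 had an FPKM of 142 and 156 in WT1 and WT2 and of 128 and 110 in KO1 and KO2. The groups did not overlap, and the KO mean was 0.800 times the WT mean. Its log2 fold change was -0.32 (SE, the standard error, 0.15, 95% interval -0.73 to 0.082, limma adjusted p = 0.797), with a range of -0.43 to -0.22 when single pools were omitted. Calr, which encodes the calcium-binding lectin chaperone calreticulin, had 253 and 249 in WT against 217 and 193 in KO, and its membrane-bound relative Canx (calnexin) 89.4 and 92.4 against 84.3 and 81.3. In Calr the WT pools were nearly equal, and both genes had KO below WT without overlap. Hsp90b1, the HSP90 of the ER (GRP94), had 77.8 and 87.8 in WT and 77.9 and 59.8 in KO, so that KO1 equalled WT1 and KO2 alone was low. Creld2 (29.1 and 31.6 in WT, 26.4 and 27.2 in KO) and Manf (18.4 in both WT pools, 18.4 and 15.7 in KO), which encode small secreted or ER-resident stress proteins, also had KO below WT. In Manf the nearest pools were almost equal, at 18.408 in WT2 and 18.406 in KO1.

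The co-chaperones and the larger HSP70 relative did not follow one direction. Hyou1 (GRP170) had log2 fold changes of -0.04, Dnajb11 of -0.05 and Dnajc3 (P58IPK) of 0.07, each with overlapping pools. Sdf2l1, a partner of Dnajb11, had 15.4 and 17.6 in WT and 16.8 and 12.6 in KO. Dnajb9 (ERdj4), which encodes a co-chaperone that restrains IRE1, had 30.7 and 22.6 in WT and 35.6 and 28.7 in KO, and its log2 fold change of 0.28 was the largest positive value of the chaperones. That value was 0.058 when WT2 was omitted and 0.50 when WT1 was. The summed FPKM of the 11 chaperones was 741 in WT1, 755 in WT2, 688 in KO1 and 610 in KO2. The median log2 fold change of the 11 was -0.13, -0.028 when KO2 was omitted and from -0.16 to -0.11 when another pool was, and KO2 was the lowest pool for 8 of them.

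Protein disulfide isomerases form and rearrange disulfide bonds, and the 4 listed here split into 3 lower and 1 higher mean in KO. Pdia3 (ERp57), which works with calreticulin and calnexin, had 160 and 172 in WT and 152 and 132 in KO, without overlap. Pdia4 had 51.6 and 56.8 against 53.9 and 41.9, and Pdia6 55.5 and 64.4 against 58.2 and 47.9, and in both genes KO1 lay between the WT pools. P4hb went the other way, with 286 and 224 in WT and 343 and 286 in KO, and its lowest pool was WT2. As a result P4hb over Hspa5, a ratio of levels per length, was 2.01 and 1.44 in WT and 2.68 and 2.59 in KO. That pair was chosen after its values were seen, and none of the 4 genes had an adjusted p under 0.824 (limma).

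The sensors were nearly flat between the groups. The log2 fold changes were 0.02 for Ern1 (95% interval -0.28 to 0.33), 0.03 for Atf6 (-0.28 to 0.34) and -0.05 for Eif2ak3 (-0.53 to 0.43), intervals that allow differences in either direction. Xbp1, which encodes the transcription factor whose mRNA IRE1 splices, had 63.9 and 73.3 in WT and 84.6 and 60.6 in KO. Both WT pools lay between the KO pools. Its log2 fold change was 0.06 (SE 0.21, 95% interval -0.48 to 0.61, limma adjusted p = 0.963). All 4 genes of this group were highest in KO1 and lowest in KO2, so the replicates of KO differed more from each other than KO did from WT.

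The degradation genes were divided. ER-associated degradation moves misfolded proteins back to the cytosol, where Syvn1 (the ligase HRD1) ubiquitinates them with its partner Sel1l. Herpud1 (116 and 97.9 in WT, 122 and 118 in KO), Edem1 (17.3 and 16.0 in WT, 18.0 and 19.5 in KO), a lectin that delivers glycoproteins for degradation, and Derl1 (41.7 and 40.3 in WT, 42.2 and 41.9 in KO) were higher in KO without overlap. Syvn1 (15.6 and 16.0 in WT, 14.6 and 14.7 in KO) was lower in KO without overlap, and Sel1l, at 17.1 and 15.6 in WT and 15.2 and 15.6 in KO, overlapped. These differences were small: the log2 fold changes of these 5 genes were between -0.10 and 0.17. Sec61b, a subunit of the channel through which proteins enter the ER, had 27.1 and 28.9 in WT and 35.0 and 25.8 in KO, again with KO1 highest and KO2 lowest.

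Derl3, a derlin of secretory cells such as plasma cells, had the largest negative value of the degradation genes. Its FPKM was 1.4985 and 1.31 in WT and 1.02 and 0.556 in KO, from 48, 45, 34 and 18 reads. The groups did not overlap, and the WT mean was 1.78 times the KO mean, 1.41 ± 0.132 (SD, n = 2 pools) against 0.788 ± 0.328 (SD, n = 2 pools). Its log2 fold change was -0.59 (SE 0.25, 95% interval -1.26 to 0.082, limma adjusted p = 0.797). Omitting KO2 gave -0.32 and omitting KO1 gave -0.85, while a pseudocount of 0.1 gave -0.81 and voom on the recovered reads -0.88. The 10 listed plasma and B cell genes, of which 6 passed the filter, differed in how they ordered the pools. Ighm, an antibody heavy chain, had 3.07 and 7.30 in WT and 1.24 and 1.04 in KO, lower in KO without overlap and lowest in KO2, like Derl3 (log2 fold change -1.69, limma adjusted p = 0.722). Cd79b, of the B cell receptor, had 0.739 and 0.772 in WT and 0.585 and 0.646 in KO, also without overlap, and Ms4a1 had 3 and 2 reads in WT and 0 in both KO pools. Jchain had 1.31 and 4.80 in WT and 1.16 and 3.01 in KO, Igkc 19.8 and 71.1 against 19.2 and 40.6, and Igha 6.81 and 29.2 against 7.48 and 14.7. These 3 genes were highest in WT2 and overlapped between the groups, whereas Derl3 was highest in WT1. Mzb1, a chaperone of antibody-secreting cells, had 2.41 and 1.93 in WT and 3.04 and 1.84 in KO, and Tnfrsf17 was at 0 reads in all 4 libraries. The part of such cells in the Derl3 values was not tested.

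Genes with an ERSE in their window were described side by side with the rest. Of the 9, 8 had a lower mean in KO (the exception was Dnajc3) and 6 had both KO pools below both WT pools, against 18.1% of all tested genes. None of the 9 had both above, against 19.7%. Their median log2 fold change was -0.18, and it was -0.11 when KO2 or WT2 was omitted and -0.28 and -0.32 when WT1 or KO1 was. Among the 26 other genes with a window, 13 were lower and 13 higher in KO, 4 had both KO pools below WT and 4 had both above, and the median was -0.011. Outside the list, 11 further genes with an ERSE were tested, of which 4 were lower and 7 higher in KO, 1 had both KO pools below WT and 3 had both above (all tested genes, 18.1% and 19.7%), with a median of 0.051. Among them was Ero1b (Ero1lb in the table), an oxidase that recharges disulfide isomerases, with 3.11 and 2.87 in WT and 3.38 and 3.03 in KO, which overlapped. The division by motif was made after the values were known and has no test.

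ATF4 itself was similar in both groups. Atf4 had 46.5 and 52.2 in WT and 49.8 and 54.4 in KO, with overlapping pools and a log2 fold change of 0.08 (SE 0.13, 95% interval -0.26 to 0.42, limma adjusted p = 0.924). Because ATF4 is controlled mainly by translation, its RNA level is not a readout of its protein. Ppp1r15a (GADD34), which encodes the phosphatase subunit that reverses eIF2alpha phosphorylation, had 4.98 and 5.07 in WT and 5.29 and 5.51 in KO. These pools did not overlap, but the log2 fold change was 0.10. Nupr1 had 10.9 and 10.6 in WT and 10.7 and 9.21 in KO.

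Ddit3, which encodes the transcription factor CHOP that promotes cell death under lasting stress, had 7.41 and 10.6 in WT and 6.70 and 9.96 in KO. The values formed a low pool and a high pool within each group. Its log2 fold change was -0.11 (SE 0.26, 95% interval -0.79 to 0.58, limma adjusted p = 0.951), and it became positive without WT replicate 2 or without KO replicate 1. Trib3, a pseudokinase induced by ATF4 and CHOP that dampens ATF4, followed the same order of pools, with 1.17 and 2.63 in WT and 1.13 and 1.77 in KO from 40, 96, 40 and 61 reads. Its log2 fold change was -0.25 (SE 0.37, 95% interval -1.23 to 0.72, limma adjusted p = 0.912). Chac1, which encodes an enzyme that degrades glutathione, had 1.41 and 3.02 in WT and 2.30 and 2.60 in KO. All 3 genes were highest in WT2. Ddit4 (REDD1), an inhibitor of mTORC1 that also answers to hypoxia and glucocorticoids, had 29.8 and 26.5 in WT and 37.3 and 25.4 in KO and did not share that order.

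Atf5, a transcription factor related to ATF4 and, like it, controlled by translation, had 14.6 and 22.4 in WT and 10.3 and 14.4 in KO. The groups did not overlap, but WT1 and KO2 were almost equal. The means were 18.5 ± 5.49 in WT and 12.3 ± 2.91 in KO (SD, n = 2 pools each), with a log2 fold change of -0.55 (SE 0.27, 95% interval -1.26 to 0.15, limma adjusted p = 0.797). Without WT replicate 2 the value was -0.26, and without WT replicate 1 it was -0.85.

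Psat1, Asns and Phgdh had the largest log2 fold changes of the list on log2(FPKM + 0.5), although Derl3 passed Asns and Phgdh by the ratio of means. Psat1 and Phgdh, of 1 pathway, pointed in opposite directions. Serine is made from a glycolytic intermediate by Phgdh, which catalyses the first step, and Psat1, which catalyses the next. Psat1 (ENSMUSG00000024640, chr19:15904678-15947337 of GRCm38, minus strand) had an FPKM of 32.0 and 16.9 in WT and 57.7 and 33.3 in KO. WT2 was lowest and KO1 highest, and WT1 and KO2 were close together. The KO mean was 1.86 times the WT mean, 45.5 ± 17.3 against 24.5 ± 10.7 (SD, n = 2 pools each). Its log2 fold change was 0.90 (SE 0.41, 95% interval -0.18 to 1.97, limma adjusted p = 0.797). Omitting WT2 gave 0.45, and omitting WT1 gave 1.35.

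Phgdh (ENSMUSG00000053398, chr3:98313170-98339990, minus strand) had 17.1 and 33.3 in WT and 13.8 and 16.7 in KO. The WT2 pool stood high and the other 3 pools were close together, although both KO pools lay below both WT pools. The WT mean was 1.66 times the KO mean, with a log2 fold change of -0.64 (SE 0.34, 95% interval -1.53 to 0.25, limma adjusted p = 0.798), which became -0.17 when WT2 was omitted and -1.11 when WT1 was omitted. The level of Psat1 over that of Phgdh was 1.87 in WT1, 0.508 in WT2, 4.19 in KO1 and 2.00 in KO2. That ratio, chosen after its values were seen, was lowest in WT2 and highest in KO1, and nearly equal in WT1 and KO2.

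Asns, which encodes asparagine synthetase and is a classic ATF4 target, repeated the pattern of Phgdh. It had 5.41 and 10.8 in WT and 4.02 and 5.29 in KO, from 238, 508, 184 and 235 reads. WT2 was again alone in being high. The WT mean was 1.74 times the KO mean, with a log2 fold change of -0.68 (SE 0.35, 95% interval -1.59 to 0.24, limma adjusted p = 0.797), which became -0.21 when WT2 was omitted and -1.14 when WT1 was omitted. Mthfd2, a mitochondrial folate enzyme, had 3.37 and 6.37 in WT and 3.91 and 4.24 in KO, and its sign changed without WT replicate 2. Shmt2, which encodes the mitochondrial enzyme that splits serine into glycine and a folate-bound carbon unit, had 64.8 and 42.9 in WT and 60.0 and 75.4 in KO, and was lowest in WT2, like Psat1. Thus Phgdh, Asns and Mthfd2 were highest in WT2 while Psat1 and Shmt2 were lowest there, and in Phgdh, Asns, Mthfd2 and Shmt2 the WT pools differed from each other by more than the groups did on the log2 scale, while in Psat1 both differences were 0.90. The summed FPKM of the macrophage, plasma cell and fibroblast markers was also highest in WT2 (for example Adgre1, 11.2 against 2.43 to 3.89, and Col1a1, 101 against 44.1 to 59.5). All 9 macrophage genes were highest there, as were 5 of the 6 tested plasma and B cell genes and 5 of the 7 fibroblast genes. The fibroblast genes Acta2 (125, against 98.4 in WT2) and Postn (3.28, against 2.54 in WT2) were highest in KO2. Tubular injury markers differed among themselves: Havcr1 was highest in WT2 (393 against 105 to 249), while Lcn2 was lowest there, with 133 and 95.2 in WT and 249 and 273 in KO. The sum of 6 such genes was 7426, 8356, 9536 and 7321 in WT1, WT2, KO1 and KO2. Most of it was Spp1 (7026, 7789, 8961 and 6872), the only 1 of the 6 that was highest in KO1. The summed proximal tubule markers were 2919 in WT1, 2035 in WT2, 1984 in KO1 and 2409 in KO2. The part of these cells in the values of the amino acid enzymes was not tested.

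**Figure D3:**
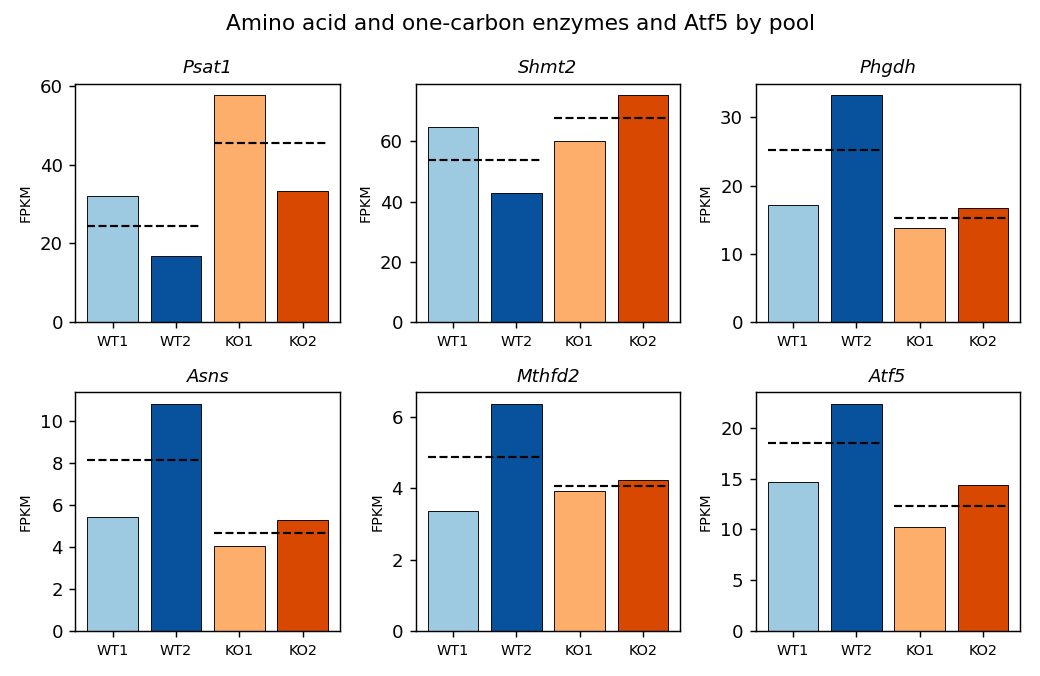
FPKM (y axis, from 0) of 5 amino acid enzymes and Atf5 in each pool, with the mean of each group as a dashed line. WT2 is the lowest pool for Psat1 (16.9) and Shmt2 (42.9) and the highest for Phgdh (33.3), Asns (10.8), Mthfd2 (6.37) and Atf5 (22.4).

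Across the whole list the pools were not spread evenly over the ranks. WT2 was the highest pool for 17 of the 39 genes (43.6%), against 29.1% of all genes tested, and KO2 was the lowest for 19 (48.7%), against 23.7% of all. KO2 was the lowest for 8 of 11 chaperones, 3 of 4 disulfide isomerases and all 4 genes of the sensor group, but for 0 of the 5 amino acid enzymes. The replicates of WT differed by a median of 0.90 on the log2 scale in the amino acid enzymes and by 0.13 in the chaperones, against 0.20 over all genes tested. Markers of other cells also moved with KO2: all 6 endothelial markers were highest there, at a summed FPKM of 75.2 against 50.3 to 61.6. The neutrophil markers summed to 26.6 there against 9.73 to 18.6, but they were divided. S100a8 (9.23 against 4.21 to 5.86) and Retnlg (6.38 against 0.688 to 1.24) were highest in KO2. S100a9 was highest in WT2 (11.5, against 11.0 in KO2), and Ly6g, Mpo and Elane had 0 reads in all 4 libraries. The injury markers Havcr1 and Vcam1 were lowest in KO2, whereas Lcn2 and Krt20 were highest there. Of the 6 injury markers, both KO pools lay above both WT pools in Lcn2 and Krt20 (33.3%, against 19.7% of all tested genes). They lay below both WT pools in Vcam1 (16.7%, against 18.1%). Krt20 had 35.55 and 36.8 in WT and 60.0 and 61.0 in KO. The log2 fold changes of Lcn2, Krt20 and Vcam1 were 1.21, 0.73 and -1.91 (limma adjusted p = 0.613, 0.545 and 0.785). The part of the cells that carry these markers in the levels of the chaperones, isomerases and sensors was not tested. No label of the samples sets WT2 or KO2 apart from the other pool of its group.

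**Figure D4:**
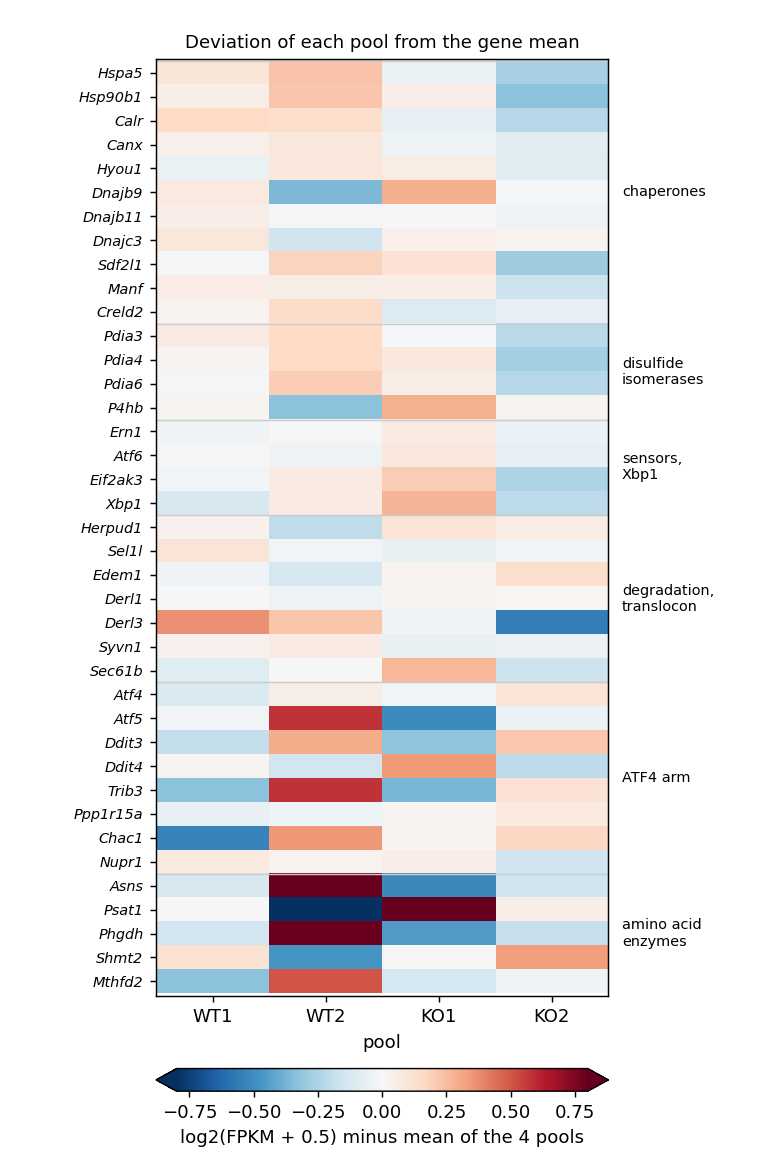
Deviation of each pool from the mean of the 4 pools, log2(FPKM + 0.5), for the 39 genes grouped by role (color scale cut at -0.8 and 0.8). KO2 is blue for most chaperones, disulfide isomerases and sensors, and apart from Psat1 in KO1, the WT2 column holds the strongest colors of the amino acid enzymes, in both directions.

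Other genes of the same pathways, from 4 lists of 89 symbols in all, were examined in the same fit. Of these, 88 were found and 82 passed the filter, and 0 had an adjusted p-value under 0.05 (limma). At an unadjusted p under 0.05 there was 1 higher and 1 lower gene of the 82, beside 3.29% and 3.03% of all tested genes. The higher gene was Sesn2, an inhibitor of mTORC1 that is induced by ATF4, p53 and NRF2, with 21.4 and 23.5 in WT and 28.6 and 29.7 in KO. Its groups were far apart relative to the replicates, and its log2 fold change was 0.37 (SE 0.11, limma adjusted p = 0.785). The lower gene was Atf3, a stress-induced transcription factor downstream of ATF4, with 6.79 and 11.3 in WT and 4.66 and 5.60 in KO and a log2 fold change of -0.72 (SE 0.26, limma adjusted p = 0.785). Over the 82 genes, 42 were higher and 40 lower in KO, with a median of 0.0061. In 9 (11.0%) both KO pools lay below both WT pools, against 18.1% of all tested genes, and in 16 (19.5%) above, against 19.7%. By list, the medians were -0.034 for 11 kinases, phosphatase subunits and regulators of eIF2alpha and ATF4, -0.0059 for 21 genes of amino acid transport, tRNA charging and synthesis, 0.016 for 19 genes of folding and glycan processing, and 0.048 for 31 genes of degradation and translocation.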

How the data were processed

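The authors deposited 1 table of FPKM for 4 libraries. The submitters' processing notes name HISAT2 2.0.5, mm10 and GRCm38.p6, and the counting tool, its use of strand and its filters are not given in the sources used here. Positions of 97.1% of 53706 genes shared with GENCODE M21 (GRCm38) were identical, among them 38 of the 39 members. Multiplied by gene length and by a total inferred for each library from the steps between low values (16071739 to 17203609), 100% of the nonzero values were whole numbers of reads (within 0.01), and the recovered reads served for depth and for voom weights. Exons of 12 members overlap another gene, by at most 10.3% of their bases, and reads there cannot be assigned without knowledge of strand.

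Log2(FPKM + 0.5) was compared over 15414 genes (mean FPKM 0.5 or more) with limma 3.58.1 in R 4.3.3 (eBayes with trend, two-sided, no covariates, Benjamini-Hochberg adjustment over all genes tested, threshold 0.05). Fold changes on this scale understate changes of low genes. All 39 members passed the filter. The fit was tested on simulated data, but no outcome of that test is given here. Members and lists were chosen with earlier results of these data known. Named with full statistics were members with an unadjusted p under 0.05 (none), members without overlap and a ratio of means of at least 1.5, and Hspa5, Xbp1, Atf4, Ddit3 and Trib3. Nothing says which mice entered a pool, so p-values measure the spread between pools. Other settings were pseudocounts of 0.1 and 1, no filter, a mean FPKM of at least 1, quantile and median scaling, no trend, a replicate block, voom weights and each pool left out. Motifs were searched in RefSeq promoter windows with Python 3.11.15.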

Additional observations from a re-analysis of the deposited data

How the results depend on the processing

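The count of members past the threshold was 0 in the limma fit reported and under every other setting (both pseudocounts, both filters, both scalings, the fit without a trend, voom weights, the replicate block and each omitted pool), with member adjusted p-values from 0.292 to 1.00 over these settings. At an unadjusted p under 0.05 the count was 0 of 39 members and 974 of all genes. The replicate numbers are not said to pair the pools, and deviations of same-numbered pools had a correlation of -0.0017. Under the replicate block 0 genes passed as well, and 4 members (Atf5, Asns, Psat1 and Phgdh) had an unadjusted p under 0.05 (10.3%, against 6.05% of all genes). Without WT replicate 1, where the lone WT pool is assumed to vary like the KO pools, 6 did (these 4, Shmt2 and Mthfd2), 15.4% against 11.2% of all genes. So did Calr under quantile normalization, Chac1 without WT replicate 2, Derl3 without KO replicate 1 and Psat1 without KO replicate 2, each 1 of 39 (2.56%) against 4.45% to 6.33% of all genes, and 0 members under the remaining settings. Members with both KO pools above WT were 5, with 3 under quantile normalization (7.69%, against 18.2% of all genes) and 6 under median scaling (15.4%, against 21.3%). With a pool left out they were 7 to 13 (17.9% to 33.3%, against 34.4% to 37.8%). Those below were 11, and 14 under quantile normalization (35.9%, against 18.6%), and 14 to 24 with a pool left out (35.9% to 61.5%, against 31.9% to 35.9%), where fewer pools overlap less. The median ranged from -0.11 to -0.0011 over the pools left out.

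Quantile normalization reversed the log2 fold changes of Dnajc3 (-0.00063), Xbp1 (-0.031), Derl1 (-0.049) and Atf4 (-0.013), and the cause was not tested. With a pool left out the sign of 14 members changed, with ranges of Hyou1 -0.11 to 0.041, Dnajc3 -0.059 to 0.19, Sdf2l1 -0.37 to 0.028, Ern1 -0.032 to 0.080, Atf6 -0.052 to 0.11, Eif2ak3 -0.27 to 0.18, Xbp1 -0.18 to 0.30, Sec61b -0.11 to 0.32, Atf4 -0.0041 to 0.16, Ddit3 -0.38 to 0.16, Ddit4 -0.14 to 0.40, Trib3 -0.70 to 0.20, Chac1 -0.26 to 0.63 and Mthfd2 -0.59 to 0.24. The other 24 members kept their sign under every setting named here. Reads of 18 to 96 a library limit Derl3, Trib3 and Chac1.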
